A study of Mus musculus with 16 samples.

Results

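Duct cells and acinar cells that turn into duct-like cells share a small set of genes, and 9 of them were followed here in mouse pancreas: the keratins *Krt18*, *Krt19*, *Krt8* and *Krt7*, the transcription factors *Sox9* and *Onecut1*, the chloride channel *Cftr*, the secreted protein *Spp1* and the mucin *Muc1*. They were chosen by symbol, and all 9 were found among the 24411 gene symbols of the raw count table. All 9 passed the filter on low counts, which left 13660 genes for testing. RNA of the pancreas was sequenced from 16 male C57BL6/J mice at 12 weeks of age, with 1 library per mouse. The lean group held 5 WT mice and the obese group 7 *Lep*(ob/ob) mice, which lack working leptin in every cell, and both drank control water. A further 4 *Lep*(ob/ob) mice were given a cholecystokinin (CCK) receptor antagonist (CCKRi) in the drinking water for 6 weeks from 6 weeks of age, 2 with proglumide at 0.1 mg/mL and 2 with lorglumide at 0.05 mg/mL. Both drugs compete with the gut hormone CCK for its receptors. By the labels, WT mice came from in-house breeding and *Lep*(ob/ob) mice from a supplier, while the methods of the study describe both as bought, so a difference in source between lean and obese mice cannot be told apart from genotype. Libraries were sequenced in 2 batches according to the labels: 3 of the WT and 4 of the untreated *Lep*(ob/ob) libraries belong to batch A, and the other libraries, including all 4 from CCKRi-treated mice, belong to batch B.

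The exocrine pancreas is built of acinar cells, which make digestive enzymes, and of ducts, which add a bicarbonate-rich fluid and carry the juice to the gut. After injury, acinar cells can lose their enzymes and take on duct genes such as *Krt19* and *Sox9*, a change named acinar-to-ductal metaplasia that can precede pancreatic neoplasia. Keratins form filaments from pairs of a type I protein (here *Krt18* and *Krt19*) and a type II protein (here *Krt8* and *Krt7*). The *Krt8* and *Krt18* pair is found in acinar and duct cells alike, while *Krt7* and *Krt19* mark ducts.

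On GRCm38 (mm10, GENCODE annotation), 3 of the keratin genes lie on chromosome 15: *Krt7* at chr15:101411043-101430313 (plus strand, 9 exons), *Krt8* at chr15:101996698-102004482 (minus strand, 9 exons) and *Krt18* at chr15:102028180-102032027 (plus strand, 7 exons). *Krt8* and *Krt18* are transcribed away from each other from starts 23.7 kb apart. *Krt19* lies at chr11:100140810-100148665 (minus strand, 6 exons), *Sox9* at chr11:112782224-112787760 (plus strand, 3 exons) and *Onecut1* at chr9:74861921-74891781 (plus strand, 2 exons). *Cftr* lies at chr6:18170687-18322768 (plus strand, 27 exons), *Spp1* at chr5:104435118-104441050 (plus strand, 6 exons) and *Muc1* at chr3:89229057-89233381 (plus strand, 7 exons). Reads could be shared with near-identical or overlapping copies mostly in 3 of the genes. Of the 50-base stretches of *Krt8* transcripts, 26.9% also occur in the pseudogene *Krt8-ps*, 11.6% of those of *Spp1* occur in the overlapping *Gm42793*, and 52.3% of those of *Onecut1* occur in other genes, nearly all in the overlapping *Gm20649*. None of these 3 partners has a row in the count table, so their effect on the counts was not tested.

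The RefSeq promoter table (GRCm38.p6) held 7 of the 9 genes, without *Krt19* and *Sox9*. The 250 bases before the RefSeq start are shown, 5′ to 3′ on the gene's own strand, for the genes on which the comparisons turned (*Krt7* and *Muc1*) and for the keratin pair that varied together (*Krt8* and *Krt18*). Capitals mark matches to GGGCGG (a GC box, the site of Sp1-type factors), TATAAA (the TATA box) or ATCAAT (the core of ONECUT sites), on either strand. RefSeq starts differ from the GENCODE gene starts given above, so the *Krt7* window lies within the GENCODE span of the gene and the *Krt8* and *Krt18* windows reach into theirs. The windows are chr15:101412153-101412402 on the plus strand, chr3:89228806-89229055 on the plus strand, chr15:102004343-102004592 on the minus strand and chr15:102027966-102028215 on the plus strand.
Krt7: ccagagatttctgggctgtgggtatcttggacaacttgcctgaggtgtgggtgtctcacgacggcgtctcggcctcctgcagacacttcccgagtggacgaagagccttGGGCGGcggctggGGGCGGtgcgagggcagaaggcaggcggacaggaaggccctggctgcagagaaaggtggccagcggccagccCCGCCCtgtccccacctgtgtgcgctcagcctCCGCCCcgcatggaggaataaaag
Muc1: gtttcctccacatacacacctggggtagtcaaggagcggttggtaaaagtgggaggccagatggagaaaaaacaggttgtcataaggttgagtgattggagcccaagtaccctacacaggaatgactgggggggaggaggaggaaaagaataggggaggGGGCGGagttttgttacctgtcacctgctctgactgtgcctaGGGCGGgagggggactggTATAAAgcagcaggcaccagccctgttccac
Krt8: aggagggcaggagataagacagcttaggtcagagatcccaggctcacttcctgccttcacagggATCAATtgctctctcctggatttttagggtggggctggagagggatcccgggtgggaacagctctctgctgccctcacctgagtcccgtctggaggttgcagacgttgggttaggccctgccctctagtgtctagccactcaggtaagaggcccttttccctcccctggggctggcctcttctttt
Krt18: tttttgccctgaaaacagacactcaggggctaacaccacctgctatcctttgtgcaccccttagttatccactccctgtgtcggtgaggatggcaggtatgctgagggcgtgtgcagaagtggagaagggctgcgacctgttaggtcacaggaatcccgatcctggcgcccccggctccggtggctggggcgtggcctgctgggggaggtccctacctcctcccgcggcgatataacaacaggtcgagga
The GC box occurred 4 times before *Krt7* and 2 times before *Muc1*, and it was found in 32.7% of all 32851 promoter windows of this length. *Muc1* also held 1 TATA box, a motif found in 12.4% of the windows. *Krt8* held 1 match to the ONECUT core, found in 6.72% of the windows. *Krt18* held no match to any motif searched. The letters ACAATG of SOX factors (10.7% of windows), TTCNNNGAA of STAT factors (7.02%) and TGANTCA of AP-1 (6.75%) were in none of the windows of the 7 genes, which says only that these letters are not there. Of the windows not shown, that of *Cftr* held 6 GC boxes, of which 3 overlap each other, that of *Onecut1* held 2, and *Spp1* held a TATA box before 1 of its 2 starts.

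Counted reads per library ran from 19.19 to 34.45 M in batch A and were fewer in batch B, 9.87 to 15.88 M. In batch A between 79.2% and 85.0% of all reads fell on the top 50 genes, and in batch B this share was 49.3% to 77.1%. Acinar tissue dominated every library: the summed normalized counts of 12 digestive enzymes were 4.82 to 18.1 M in WT, 4.37 to 16.4 M in *Lep*(ob/ob) and 2.36 to 7.23 M in CCKRi-treated mice. *Lep* itself was read at 17.5 to 64.7 normalized counts in WT and at 254 to 8655 in *Lep*(ob/ob) mice, so the transcript is still made there and its count does not check the genotype. The intestinal genes *Alpi*, *Cdx1* and *Cdx2* had no reads in any library. *Fabp2* and *Sis* had none in WT or untreated *Lep*(ob/ob) libraries, but not all treated libraries lacked them. Of 2 intestinal markers tested, *Vil1* rose in *Lep*(ob/ob) mice by 2.88 on the log2 scale (edgeR adjusted p = 8.08e-05) and *Lgals4* did not pass (-0.40, adjusted p = 0.749). Libraries of *Lep*(ob/ob) mice 417, 461 and 463 and of CCKRi-treated mouse 69 held the highest fat and macrophage marker levels, with summed fat markers of 18978 to 65663 normalized counts against at most 12104 in the others. Calls that changed without these 4 libraries are given both ways. Leaving them out keeps only mouse 464 of the untreated *Lep*(ob/ob) mice of batch B.

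Levels of the 9 genes spanned more than 2 orders of magnitude. Compared per kb of the principal transcript, and with normalized counts (reads divided by 1 size factor per mouse) as the scale, WT pancreas held 1274 ± 243 of *Spp1* (osteopontin, a secreted glycoprotein of duct cells and macrophages), 1266 ± 352 of *Krt18*, 1141 ± 525 of *Muc1* (a mucin of the apical membrane) and 737 ± 266 of *Krt8* (SD, n = 5 each). The WT ranges of *Spp1*, *Krt18* and *Muc1* overlapped, and *Krt8* overlapped with *Krt18* and *Muc1*, while every WT value of *Spp1* (1116 to 1702 per kb) lay above every one of *Krt8* (382 to 1028). *Krt19* followed at 202 ± 35.5 per kb, and every WT mouse had less *Krt19* than the lowest *Krt8* value of 382. *Sox9*, a factor that maintains duct identity, stood at 83.1 ± 8.86 per kb, apart from *Krt19* above it and from *Onecut1* below it. *Onecut1* (HNF6, a factor of duct and endocrine development) at 22.8 ± 7.54 and *Krt7* at 22.4 ± 3.59 per kb overlapped. *Cftr*, the chloride and bicarbonate channel of the duct's apical membrane, was lowest at 7.92 ± 3.26 per kb, with all WT values below the lowest *Onecut1* value of 14.3. *Cftr* also rested on the fewest raw counts, at 19 to 88 reads per library, with *Onecut1* at 38 to 126.

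**Figure D1:**
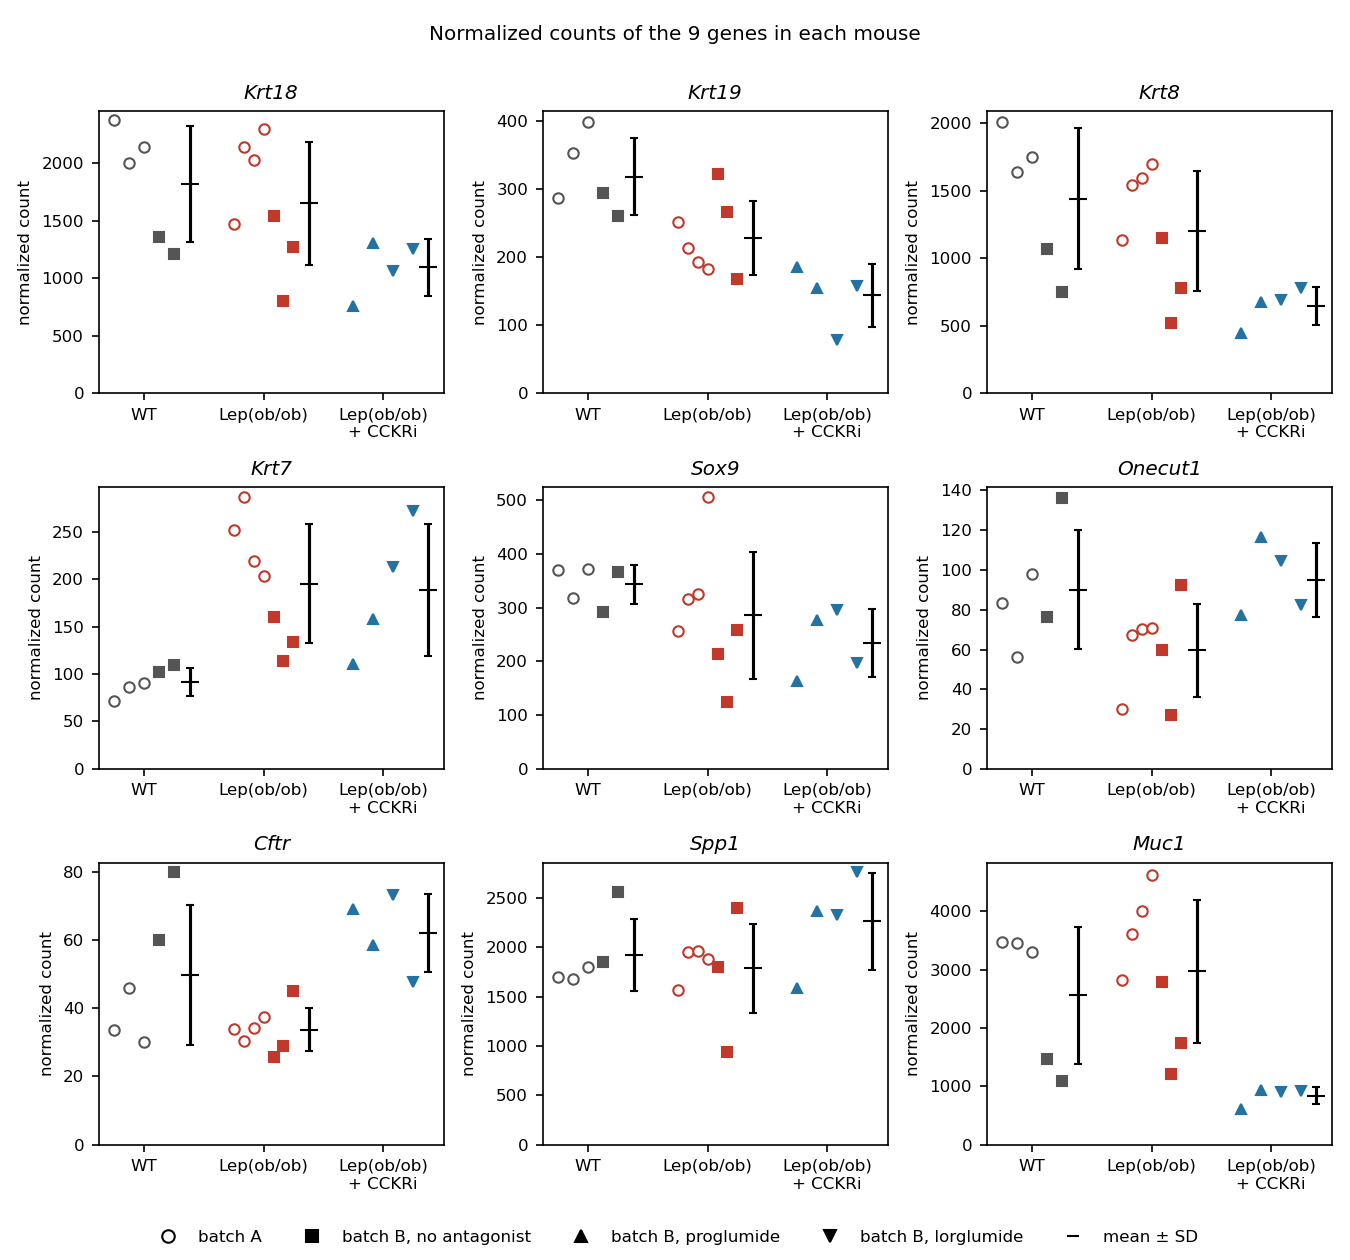
Normalized count (linear axis from 0) of each of the 9 genes in every mouse, with WT in grey, *Lep*(ob/ob) in red and CCKRi-treated *Lep*(ob/ob) in blue; open circles are batch A, filled squares batch B, triangles the 2 drugs, and bars the mean ± SD. *Krt7* runs from 71.3 to 109 in WT and from 114 to 287 in *Lep*(ob/ob) mice, and the 4 CCKRi-treated mice lie lowest for *Muc1*, at 613 to 930.

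The first comparison asked how these genes differ between obese and lean pancreas. *Krt7* was the only one of the 9 that rose in *Lep*(ob/ob) mice, about 2.04-fold, and none of the 9 fell. The count of 1 in 9 stood against 9.07% of all genes tested that were called in either direction (edgeR, adjusted p under 0.05), 5.93% higher and 3.14% lower. At an unadjusted p under 0.05 there were 4 of the 9 (*Krt7* higher and *Krt19*, *Cftr* and *Onecut1* lower), against 23.8% of all genes. Over the 9 genes 2 fold changes were positive and 7 negative, with a median log2 fold change of -0.24, against -0.02 over all genes tested. In bulk tissue, fewer cells of a type and less RNA per cell cannot be told apart.

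*Krt7* was read at 71.3, 85.9 and 90.9 normalized counts in the WT mice of batch A and at 102 and 109 in those of batch B. In *Lep*(ob/ob) mice it was at 203, 220, 252 and 287 in batch A and at 114, 134 and 160 in batch B. All 7 untreated obese mice lay above all 5 lean mice, by a wide gap in batch A and by a narrow one in batch B. Group means were 196 ± 63.2 (SD, n = 7) and 91.9 ± 14.7 (SD, n = 5), with a log2 difference of 1.03 (standard error 0.24, edgeR adjusted p = 0.0125). Within batch A the log2 fold change was 1.58 (adjusted p = 0.000356), and within batch B it was 0.32 (adjusted p = 0.641). The interaction of genotype and batch had a log2 value of -1.23 for *Krt7* (edgeR adjusted p = 0.275), which did not pass over all genes. Of all genes 0 passed and 11.9% had an unadjusted p under 0.05 (edgeR), and *Krt7* was among the latter with an unadjusted edgeR p of 0.000983.

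Islet hormone and granule genes moved with *Krt7*. Of 12 islet markers, 9 rose in *Lep*(ob/ob) mice, with a median log2 fold change of 2.34 over the list, led by *Chgb* (3.47), *Scg2* (3.44), *Iapp* (2.81) and *Ppy* (2.59), and their summed normalized counts were 24548 to 36159 in WT mice, 187669 to 263638 in the untreated *Lep*(ob/ob) libraries of batch A and 54530 to 131390 in those of batch B. Over the 16 mice *Krt7* followed the mean log2 level of these markers with a Pearson r of 0.93, and with 0.85 once group and batch means were removed, which is a description of mice that share libraries, batches and genotype. The 1 *Lep*(ob/ob) mouse with islet markers in the WT range was CCKRi-treated mouse 69, at 29606, and its *Krt7* count of 110 lay next to the 102 and 109 of the WT mice of its batch. Mouse 69 also had a fat marker sum of 42306 and the lowest acinar enzyme sum (2.36 M), and their part in these values was not tested. A fit that also held the islet marker score, chosen once the values were known, gave *Krt7* a log2 difference of 0.13 (edgeR adjusted p = 0.708). In that fit *Sox9* (-0.91, adjusted p = 0.0445) and *Spp1* (-0.75, adjusted p = 0.0444) passed the threshold instead. Since the islet score and genotype rise together, with no untreated *Lep*(ob/ob) mouse in the WT range, their shares cannot be told apart.

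**Figure D2:**
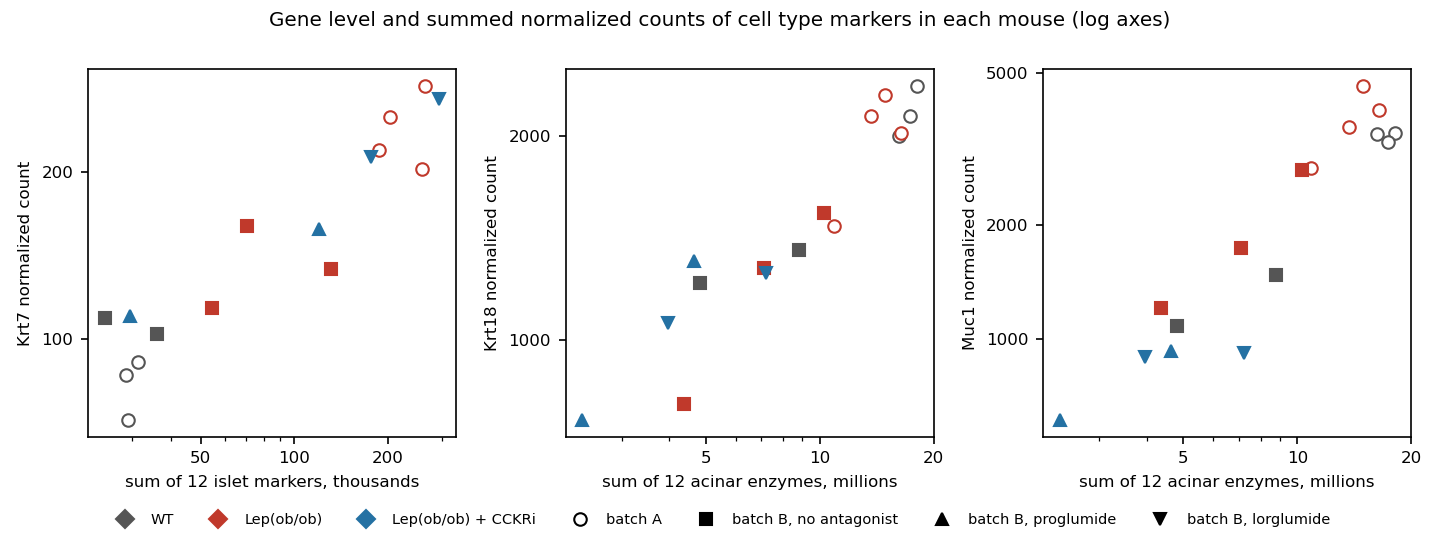
*Krt7* against the summed normalized counts of 12 islet markers, and *Krt18* and *Muc1* against those of 12 acinar enzymes, 1 point per mouse on log axes; colours and symbols give group, batch and drug. *Krt7* climbs from 71.3 to 287 over the range of islet sums, and *Krt18* and *Muc1* climb with the acinar enzymes, with the CCKRi-treated mice lowest for *Muc1*.

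The other duct keratin, *Krt19*, did not share this pattern. It was read at 287, 352 and 398 normalized counts in WT mice of batch A and at 260 and 294 in those of batch B, against 181, 193, 213 and 252 in untreated *Lep*(ob/ob) libraries of batch A and 168, 266 and 321 in those of batch B. The *Lep*(ob/ob) values lay below all WT values in batch A and overlapped with them in batch B. The log2 fold change was -0.50 (standard error 0.20, edgeR adjusted p = 0.133) over both batches, -0.67 (adjusted p = 0.0333) in batch A and -0.18 (adjusted p = 0.800) in batch B. Without *Lep*(ob/ob) mice 417, 461 and 463 and CCKRi-treated mouse 69, the log2 fold change was -0.78 with an adjusted p of 0.00401, and *Krt19* passed. Over the 16 mice the Pearson r of *Krt19* with fat, fibroblast and mesothelial markers was 0.06, 0.63 and 0.49 as measured, and 0.64, 0.71 and 0.69 once group and batch means were removed. The ratio of *Krt7* to *Krt19* counts, a measure chosen after their values were seen, was 0.229 to 0.421 in WT and 0.427 to 1.35 in *Lep*(ob/ob) mice.

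The simple-epithelium pair *Krt8* and *Krt18* did not differ beyond the spread between mice. *Krt18* was at 1213 to 2374.5 normalized counts (median 2002) in WT and at 802 to 2300.4 (median 1539) in *Lep*(ob/ob) mice, with a log2 difference of -0.13 (standard error 0.17, edgeR adjusted p = 0.704). *Krt8* was at 748 to 2012 (median 1637) in WT and at 518 to 1702 (median 1148) in *Lep*(ob/ob) mice, with a log2 difference of -0.24 (standard error 0.19, adjusted p = 0.479). Both genes were lower in batch B: mean *Krt8* in WT mice was 1800 in batch A and 907 in batch B, and mean *Krt18* was 2174 and 1286. *Muc1* showed the widest gap between batches, with WT means of 3411 in batch A and 1278 in batch B, and *Lep*(ob/ob) means of 3766 and 1908. Its log2 fold change between genotypes was 0.31 (standard error 0.20, adjusted p = 0.375), 0.18 in batch A and 0.54 in batch B, with overlapping groups in each. With each mouse left out in turn it ran from 0.155 to 0.392.

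The transcription factors and the channel were nominally lower in *Lep*(ob/ob) mice, and none passed. *Sox9* was at 292 to 372 normalized counts (median 366.6) in WT and at 124 to 506 (median 258) in *Lep*(ob/ob) mice, with a log2 difference of -0.32 (standard error 0.22, edgeR adjusted p = 0.404). Its value was 0.04 within batch A and -0.77 within batch B, where the 3 *Lep*(ob/ob) mice lay below both WT mice. *Onecut1* was at 56.5 to 136 (median 83.5) in WT and at 26.8 to 92.4 (median 67.2) in *Lep*(ob/ob) mice, with a log2 difference of -0.62 (standard error 0.29, adjusted p = 0.205). *Cftr* was at 30.0, 33.7 and 45.9 in WT mice of batch A and at 60.0 and 80.0 in those of batch B, and at 30.4 to 37.4 and 25.7 to 45.1 in *Lep*(ob/ob) mice of batches A and B. The groups overlapped in batch A and were apart in batch B, where the 2 WT mice were higher. The log2 fold change of *Cftr* was -0.53 (standard error 0.22, adjusted p = 0.155) over both batches, -0.05 in batch A and -1.11 in batch B (adjusted p = 0.192). *Spp1* was at 1681 to 2565 in WT and at 939 to 2404 in *Lep*(ob/ob) mice, with a log2 difference of -0.11 (standard error 0.20, adjusted p = 0.785). Without mice 417, 461, 463 and 69 the log2 values were smaller or turned: -0.0047 for *Sox9*, -0.19 for *Onecut1*, -0.26 for *Cftr* and 0.16 for *Spp1*. That fit keeps only mouse 464 of the untreated *Lep*(ob/ob) mice of batch B. Groups were apart for 2 of the 9 genes in batch A (*Krt7* and *Krt19*), against 21.1% of all genes (11.2% higher and 9.92% lower), and for 3 in batch B (*Krt7*, *Sox9* and *Cftr*), against 33.2% (17.5% higher and 15.7% lower). Only *Krt7* was apart in the same direction in both batches, as were 8.89% of all genes.

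Around these 9, other duct and metaplasia genes moved in both directions. Of 27 further duct identity genes tested, 0 rose and 3 fell in *Lep*(ob/ob) mice (median log2 fold change -0.12, against -0.02 over all genes), among them *Pigr* (-0.74, adjusted p = 0.0247), which carries antibodies across epithelia, and *Ehf* (-0.67, adjusted p = 0.0242), an epithelial ETS factor. Of 15 duct transport and secretion genes tested, 2 rose and 2 fell (median 0.19). Those that rose were the VIP receptor *Vipr1* (0.86, adjusted p = 0.0189) and the sodium pump subunit *Atp1b1* (0.52, adjusted p = 0.0332), and those that fell were the secretin receptor *Sctr* (-1.39, adjusted p = 0.0160) and the chloride importer *Slc12a2* (-0.52, adjusted p = 0.0183). Of 29 metaplasia and injury genes tested, 2 rose and 1 fell (median 0.23): the hyaluronan receptor *Cd44* rose by 1.27 (adjusted p = 0.00473) and the EGF receptor ligand *Hbegf* by 1.21 (adjusted p = 0.00938), while nestin (*Nes*) fell by 0.58 (adjusted p = 0.0340). The gastric-type gene *Cldn18* of this list had no reads in any library, and *Tff1* had none in any *Lep*(ob/ob) library or in the WT libraries of batch B. *Areg*, *Ereg* and *Muc5ac* had none in any WT library but were not absent from all untreated *Lep*(ob/ob) libraries. Among 8 acinar transcription factors, *Ptf1a*, which holds acinar cells in their enzyme-making state, fell by 1.03 (adjusted p = 0.00561), and 0 of 12 acinar enzymes were called, with 0 at an unadjusted p under 0.05 (edgeR). Of 48 keratin symbols counted, 9 passed the filter, and 2 of them rose, *Krt7* and *Krt222* (2.20, adjusted p = 0.0132), a keratin-related gene at 5.71 ± 3.97 normalized counts in WT (SD, n = 5). Of the marker lists of other cell types, macrophage (12 tested), mesothelial (7), lymphocyte (7), fibroblast (8) and endothelial (8) genes had 0 called by edgeR, with 2, 0, 0, 0 and 1 at an unadjusted p under 0.05, and of 8 adipocyte genes 1 fell (*Cfd*). The adipocyte list as a whole had 6 positive and 2 negative fold changes, a median of 1.53 on the log2 scale and 6 genes at an unadjusted p under 0.05. These list counts were not stable. Without mice 417, 461, 463 and 69 there were 7 duct identity, 3 duct transport and 2 metaplasia and injury genes called, and in batch B alone there were 0 of each. The 4 duct transport calls came to 1 without WT mouse 5494 and to 2 without WT mouse 5489 or 58, and the 3 duct identity calls came to 1 without WT mouse 5489, WT mouse 59 or *Lep*(ob/ob) mouse 417. Without *Lep*(ob/ob) mouse 461, 2 acinar factors were called in place of 1. With the islet marker score as a covariate, 10 duct identity genes and 15 metaplasia and injury genes were called in place of 3 and 3. The share of all genes called in that fit is not given here, so these counts cannot be set against it.

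**Figure D3:**
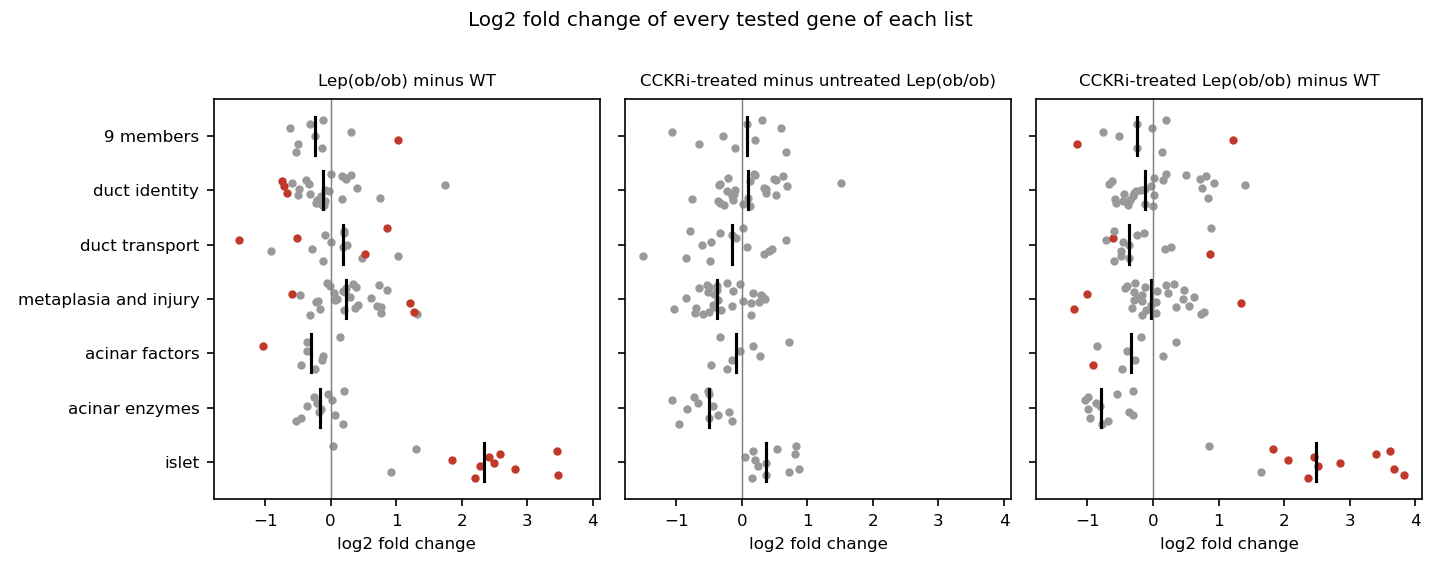
Log2 fold change of every tested gene of 7 lists in the 3 comparisons (1 point per gene, red where the edgeR adjusted p was under 0.05, black bar at the list's median). Islet genes stand to the right in both comparisons with WT, and the duct and metaplasia lists straddle 0 with few red points.

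The second comparison asked what CCK receptor blockade does to these genes in obese mice, and none of the 9 was called by edgeR, against 0.0586% of all genes (0.0293% higher and 0.0293% lower). At an unadjusted p under 0.05 there were 3 of the 9 (*Muc1* and *Krt19* lower, *Cftr* higher), against 14.3% of all genes, and DESeq2 with batch called 1, *Muc1*, against 0.701% of all genes. Treated mice were apart from the untreated *Lep*(ob/ob) mice of batch B for 2 of the 9 (*Muc1* and *Cftr*), against 8.73% of all genes (4.66% higher and 4.07% lower). All treated mice were in batch B, so only the 3 untreated mice of that batch were sequenced alongside them.

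*Muc1* had the largest difference. It was at 613 and 930 normalized counts in the proglumide mice and at 896 and 920 in the lorglumide mice, against 1205, 1737 and 2782 in untreated *Lep*(ob/ob) mice of batch B and 2817 to 4630 in those of batch A. All 4 treated mice lay below all 7 untreated mice, and also below the 1083 and 1473 of the WT mice of their batch. The log2 fold change was -1.06 (standard error 0.24, edgeR adjusted p = 0.168), and it was -1.08 with an adjusted p of 0.00439 in DESeq2. Across the other settings the log2 fold change stayed negative, from -1.82 to -0.63, and the edgeR test passed only when the batch term was left out (-1.81, adjusted p = 0.0479). *Muc1* levels went with those of the acinar enzymes, with an r of 0.94 over the 16 mice and 0.85 after group and batch means were removed. The enzymes summed to 2.36 to 7.23 M in treated and 4.37 to 10.3 M in untreated mice of batch B, with all 12 nominally lower in treated mice (median log2 fold change -0.51, 0 called). A fit that also held the acinar enzyme score, likewise chosen once the values were known, gave *Muc1* a log2 difference of -0.63 (adjusted p = 0.145). The ratio of *Muc1* to *Krt18* counts, chosen after the values were seen, was 0.711 to 0.845 in treated, 1.36 to 1.81 in untreated *Lep*(ob/ob) and 0.893 to 1.08 in WT mice of batch B.

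*Cftr* went the other way. It was at 58.7 and 69.2 normalized counts with proglumide and at 47.7 and 73.3 with lorglumide, against 25.7 to 45.1 (median 34.1) in the 7 untreated *Lep*(ob/ob) mice. The treated values were above all untreated ones, and they overlapped with the 60.0 and 80.0 of the WT mice of batch B or lay below them. The log2 fold change was 0.67 (standard error 0.27, edgeR adjusted p = 0.306), and 0.96 (adjusted p = 0.327) in batch B alone. It was 0.15 (adjusted p = 0.970) without *Lep*(ob/ob) mice 417, 461 and 463 and treated mouse 69. Of the untreated mice of batch B, that fit kept only mouse 464. The 2 intestinal markers tested were also nominally higher in treated mice, *Lgals4* by 1.59 (edgeR adjusted p = 0.314) and *Vil1* by 0.26 (adjusted p = 0.734). Their list had a residual r of 0.65 with *Cftr* (0.17 as measured), and its part in the difference was not tested. *Krt19* was at 154 and 185 with proglumide and at 77.6 and 157 with lorglumide, overlapping with the 168 to 321 of untreated mice, with a log2 difference of -0.65 (standard error 0.24, adjusted p = 0.290). *Onecut1* was at 77.1 to 116 in treated mice, with a log2 difference of 0.60 (standard error 0.35, adjusted p = 0.438), and *Spp1* was at 1589 to 2768, with a log2 difference of 0.31 (standard error 0.25, adjusted p = 0.555). With each mouse left out in turn, these differences ran from 0.30 to 0.84 for *Onecut1* and from 0.061 to 0.46 for *Spp1*. Without mice 417, 461, 463 and 69, *Krt19* was at -0.32, *Onecut1* at 0.12, *Spp1* at 0.031 and *Muc1* at -0.84 on the log2 scale. In that fit, with mouse 464 the only untreated mouse of batch B, 1 of the 9 in place of 3 had an unadjusted p under 0.05 (edgeR, *Muc1*). The remaining 4 genes were within 0.30 of no change on the log2 scale in the fit of all mice: *Krt8* at -0.28, *Krt7* at 0.20, *Krt18* at -0.11 and *Sox9* at 0.07. In batch B alone they were at -0.28, 0.53, -0.09 and 0.29 (edgeR adjusted p = 0.634, 0.391, 0.885 and 0.624). *Krt7* was at 110 and 158 normalized counts with proglumide and at 213 and 272 with lorglumide, against 114 to 160 in untreated mice of batch B. Each of these 4 changed sign in at least 1 setting.

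None of the wider duct, metaplasia, acinar or marker lists held a called gene in this comparison by edgeR with batch as a covariate, and DESeq2 with batch called 1 duct transport gene and 0 duct identity or metaplasia genes. Leaving out *Lep*(ob/ob) mouse 464 also gave 1 duct transport gene (edgeR), and with no batch term edgeR called 2 genes each of the duct transport, duct identity and metaplasia and injury lists. DESeq2 without batch called 3 duct transport, 6 duct identity, 4 metaplasia and injury and 3 acinar factor genes. For the fits without batch the share of all genes called is not given here, so these counts cannot be set against it. At an unadjusted p under 0.05 there were 5 of 15 duct transport genes, 3 of 27 duct identity genes and 4 of 29 metaplasia and injury genes, with medians of -0.14, 0.09 and -0.38 on the log2 scale against -0.01 over all genes. Macrophage, fibroblast and mesothelial markers had medians of -1.25, -0.95 and -0.97, with 9 of 12, 7 of 8 and 3 of 7 at an unadjusted p under 0.05, and their part in the differences of *Krt19* and *Spp1* was not tested.

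**Figure D4:**
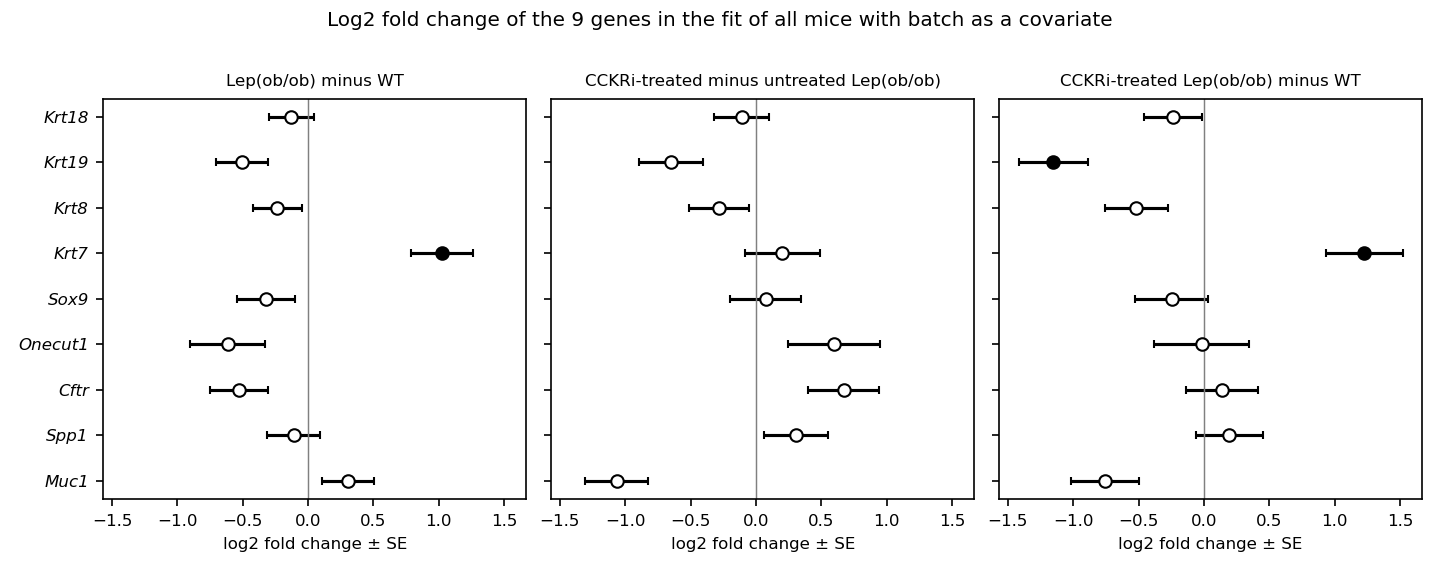
Log2 fold change (point) and standard error (bar) of the 9 genes in each comparison, from the edgeR fit of all 16 mice with batch as a covariate; filled points have an adjusted p under 0.05. *Krt7* is filled in both comparisons with WT (1.03 and 1.23), *Krt19* only for treated mice against WT (-1.15), and no point is filled for treated against untreated mice.

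The third comparison set treated obese mice against lean WT mice, and shares its treated mice with the second and its WT mice with the first. *Krt7* rose and *Krt19* fell, so 2 of the 9 were called against 5.57% of all genes (4.22% higher and 1.35% lower). At an unadjusted p under 0.05 there were 4 of the 9 (with *Muc1* and *Krt8* lower), against 16.7% of all genes, and DESeq2 with batch called 3, against 7.79%. *Krt7* was at 110.2 and 158 normalized counts with proglumide and at 213 and 272 with lorglumide, all above the highest WT value of 109.2, the lowest of them barely so. The log2 fold change was 1.23 (standard error 0.29, edgeR adjusted p = 0.0176). The islet marker sums of these mice ran in the same order, 29606 and 120447 with proglumide and 177273 and 293594 with lorglumide, and 10 of 12 islet markers rose against WT, led by *Chgb* (3.84), *Iapp* (3.68), *Scg2* (3.62) and *Ppy* (3.41). With the islet marker score as a covariate the log2 fold change of *Krt7* was 0.23 (adjusted p = 0.626). Leaving out lorglumide mouse 74 or 76 gave 1.18 and 1.001 (adjusted p = 0.0620 and 0.0599), so the call rests on each of these. In batch B alone it was 0.84 (adjusted p = 0.410), with only the 2 groups in the fit 0.84 (adjusted p = 0.213) and with the proglumide mice alone 0.74 (adjusted p = 0.289).

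*Krt19* in the 4 treated mice (77.6 to 185) lay below all 5 WT mice (260 to 398). Its log2 fold change was -1.15 (standard error 0.27, edgeR adjusted p = 0.0147), and it passed with each mouse left out in turn (-1.30 to -0.94). In batch B alone, with 2 WT mice, it was -0.93 with an adjusted p of 0.319, and with the proglumide mice alone it was -0.92 with an adjusted p of 0.108. With the islet marker score as a covariate it was -0.69 (adjusted p = 0.203). Fibroblast, mesothelial, endothelial, acinar enzyme, macrophage and lymphocyte lists were also nominally lower in treated mice than in WT. Their median log2 fold changes were -0.65, -0.95, -0.28, -0.79, -0.82 and -0.90, with 0 genes called (edgeR). Of the 12 macrophage genes, 2 had positive fold changes. Adipocyte and islet markers went the other way, with medians of 1.12 and 2.48. The part of these cell types in the fall of *Krt19* was not tested. *Muc1* was also apart from the WT mice of batch B, at a log2 difference of -0.76 (standard error 0.26, adjusted p = 0.110), and DESeq2 with batch called it (-0.77, adjusted p = 0.0441), as did edgeR without mice 417, 461, 463 and 69 (-0.52, adjusted p = 0.0373). Groups were thus apart in batch B for 3 of the 9, against 21.7% of all genes (11.3% higher and 10.4% lower). The other 6 genes did not pass: *Krt8* was at -0.52 (adjusted p = 0.295), *Sox9* at -0.25, *Krt18* at -0.24, *Spp1* at 0.20, *Cftr* at 0.14 and *Onecut1* at -0.02.

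Against WT, treated mice had 1 duct transport gene higher (*Atp1b1*, 0.86, adjusted p = 0.00823) and 1 lower (*Slc12a2*, -0.60, adjusted p = 0.0458) of 15, and 0 of 27 duct identity genes called, with 5 at an unadjusted p under 0.05 (edgeR), 0 called by DESeq2 with batch and 4 by DESeq2 without batch. Of 29 metaplasia and injury genes *Hbegf* rose (1.34, adjusted p = 0.0270), and *Nes* (-1.01, adjusted p = 0.00805) and the secreted chaperone clusterin (*Clu*, -1.20, adjusted p = 0.0492) fell. The acinar factor *Gata4* fell (-0.91, adjusted p = 0.0365), and *Krt222* rose (2.26, adjusted p = 0.0404). *Vil1* rose (3.14, adjusted p = 0.000226) and *Cfd* fell (-4.23, adjusted p = 0.0115). Without mice 417, 461, 463 and 69 the calls were 4 duct transport, 3 duct identity, 5 metaplasia and injury and 2 acinar factor genes, and in batch B alone there were 0 of each. Duct transport calls came to 1 without any 1 of the 5 WT mice or treated mouse 72 or 74, and metaplasia and injury calls to 1 without WT mouse 58. Duct identity calls came to 3 without WT mouse 59 and to 1 without treated mouse 69. The acinar factor list had 0 calls without WT mouse 5489, 5494, 58 or 59 or treated mouse 69, 74 or 76. With the islet marker score there were 7 duct identity genes called, again without the share of all genes called in that fit. That share is also missing for DESeq2 without batch.

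The antagonists were given at different doses, so their values are set side by side without a comparison. Mean normalized counts with proglumide and lorglumide (n = 2 each) were 134 ± 34.1 and 243 ± 41.2 for *Krt7*, 169 ± 22.1 and 117 ± 56.4 for *Krt19*, 771 ± 224 and 908 ± 17.2 for *Muc1*, and 64.0 ± 7.47 and 60.5 ± 18.1 for *Cftr* (SD). For *Krt8* they were 561 ± 161 and 734 ± 65.7, for *Krt18* 1034 ± 386 and 1157 ± 138, and for *Sox9* 221 ± 80.5 and 247 ± 69.7. *Spp1* was at 1981 ± 555 and 2546 ± 313, and *Onecut1* at 96.8 ± 27.8 and 93.4 ± 15.8. The low proglumide values of *Krt18*, *Krt8*, *Muc1*, *Sox9*, *Spp1*, *Onecut1* and *Krt7* were those of mouse 69, the library with high fat markers and the lowest acinar enzyme sum.

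The 9 genes did not vary as 1 block. Over the 16 mice, and with all values describing mice that share batch and depth, the Pearson r between log2 levels was 0.98 for *Krt8* and *Krt18*, 0.93 for *Krt8* and *Muc1* and 0.89 for *Krt18* and *Muc1*. The simple-epithelium keratins and *Muc1* thus went together, also with group and batch means removed (0.93, 0.94 and 0.88 for the same pairs), and all 3 followed the acinar enzymes (0.97, 0.94 and 0.94 for *Krt8*, *Krt18* and *Muc1*). *Sox9* as measured was closer to *Krt18* (0.79) and *Krt8* (0.73) than to *Onecut1* (0.50) or *Spp1* (0.45). Once group and batch means were removed, r was 0.83 for *Sox9* and *Onecut1*, 0.81 for *Spp1* and *Onecut1* and 0.78 for *Sox9* and *Spp1*, and each followed the duct identity list (0.96 for *Spp1*, 0.80 for *Sox9* and 0.78 for *Onecut1*, against 0.67, 0.84 and 0.49 as measured). *Krt18* was not separate from these on residuals, with 0.71 for *Spp1*, 0.67 for *Onecut1*, 0.66 for *Sox9* and 0.72 for the duct identity list. *Spp1*, also a macrophage gene, had a residual r of -0.88 with 12 macrophage markers (-0.78 as measured), and a macrophage share of its reads was not tested. *Krt7* had the highest r with the islet list of the 9, with 0.93 as measured. *Krt19* had a residual r of -0.53 with the duct identity list (-0.10 as measured) and of -0.65 with *Sox9* (0.06 as measured). With the duct transport list its r was 0.73 as measured and 0.70 on residuals, where the other 8 genes were negative. *Krt19* and *Krt7*, the keratins that mark ducts, had an r of -0.58 as measured and of -0.32 on residuals.

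**Figure D5:**
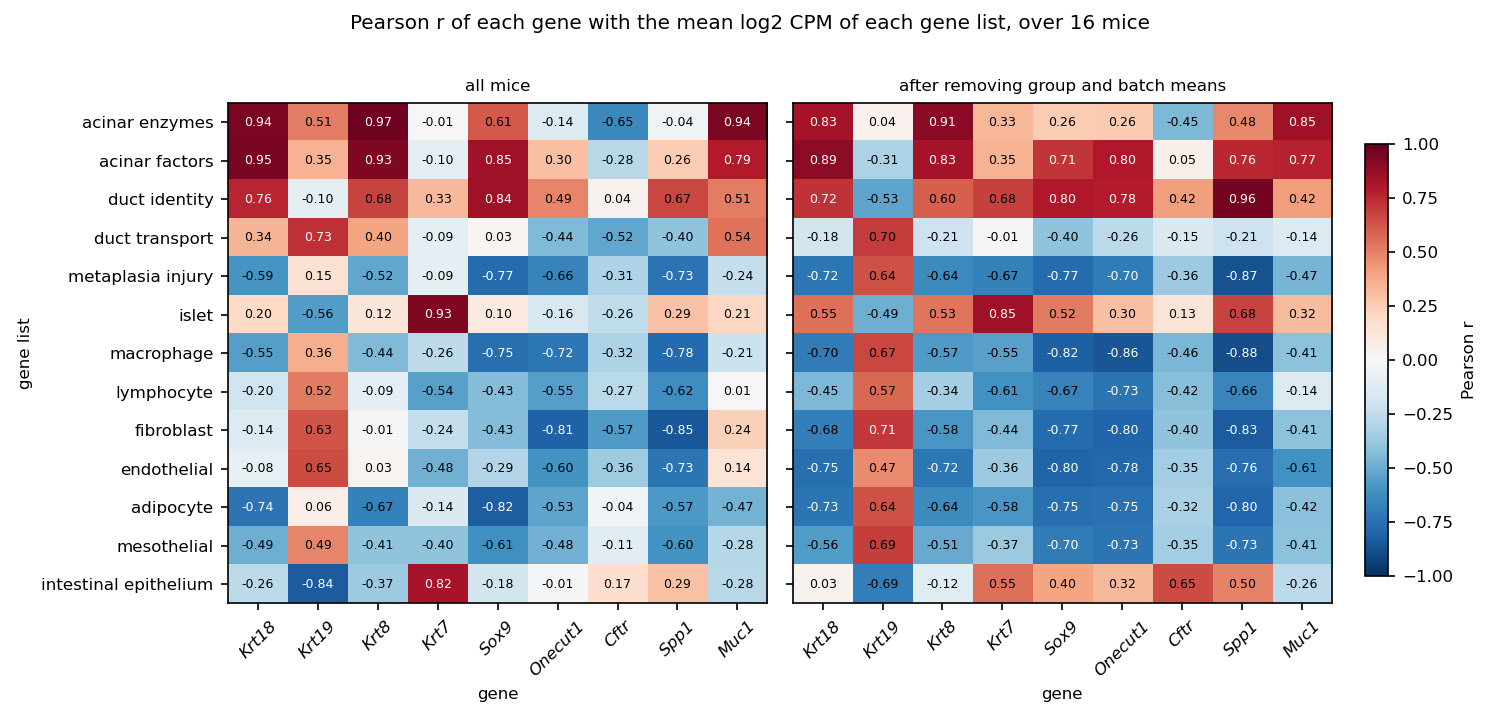
Pearson r of each of the 9 genes with the mean log2 CPM of each of 13 gene lists over the 16 mice, as measured (left) and after group and batch means were removed (right); red is positive and blue negative. *Krt8*, *Krt18* and *Muc1* are red for acinar enzymes, *Krt7* for islet genes and *Spp1* for duct identity genes, while *Krt19* has the opposite sign to the other 8 for most lists on the right.

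The genes whose pattern was most like each member, by Pearson r of log2 CPM over the 16 mice, were *Adgrb3* (0.96), *Wnt4* (0.96) and *Kcnmb2* (0.96) for *Krt7*, *Oaf* (0.89), *Sdc4* (0.86) and *Slc25a45* (0.85) for *Krt19*, *Ttyh1* (0.99), *Srp68* (0.99) and *Prss8* (0.99) for *Krt8*, and *Kdf1* (0.98), *Bcat2* (0.98) and *Mogs* (0.98) for *Krt18*. For *Muc1* they were *Dmbt1* (0.99), *C1rl* (0.98) and *Wars* (0.98), for *Sox9* *Zfp687* (0.94), *Rps29* (0.93) and *Sytl1* (0.92), and for *Onecut1* *Dennd2d* (0.93), *Zbtb18* (0.91) and *Mknk1* (0.90). For *Spp1* they were *Igsf5* (0.94), *2310030G06Rik* (0.92) and *Ndufa1* (0.91), and for *Cftr* *1810026B05Rik* (0.93), *3110057O12Rik* (0.93) and *C030034I22Rik* (0.93). *Krt19* had the least close neighbours of the 9.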

How the data were processed

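RNA of mouse pancreas was sequenced from polyA-selected, strand-specific libraries, 1 per mouse. The submitters' notes name Trim Galore 0.6.7, cutadapt 3.5, STAR 2.7.9 and the mm10 build, and the authors deposited a raw count of reads for each gene symbol and mouse. The read counter, its strand setting and the annotation are not given in the sources used here, so reads of overlapping genes cannot be told apart. In a second table the authors deposited a normalized signal, called normalized count here, which equals raw reads scaled by a single factor for each library, with no correction for batch. DESeq2 is the tool their notes name. No columns were left unmapped.

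Raw counts were tested in R 4.3.3 with edgeR 4.0.16 (filterByExpr, TMM, quasi-likelihood test) in 1 model of the 3 groups and batch, over all 16 mice. P values are two-sided and adjusted by the Benjamini-Hochberg method over the 13660 genes tested, and an adjusted p under 0.05 is a call. Log2 CPM used a prior count of 2. The alternatives were 13 settings and leaving out each mouse, with DESeq2 1.42.0 among them, and 2 fits with a marker score (mean log2 CPM of a list) as a covariate were added after seeing the data. The models were tested on simulated data, for which no values are given here. The mice of a group are separate animals, and no 2 libraries agreed within sampling noise (chi-square per gene at least 8.09).

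The members, gene lists and tests were chosen with earlier results of these data known. All 9 members are named in every comparison; of each other list, genes with an adjusted p under 0.05, at most the 4 with the largest change; and for each member the 3 genes most like it. Of the list genes that this rule takes, 1 is not reported here. Transcript lengths and shared 50-base stretches come from GENCODE, promoter sequences from RefSeq (GRCm38.p6). Figures were drawn with Python 3.11.15 and matplotlib 3.10.9. Protein sequences were not used here.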

Additional observations from a re-analysis of the deposited data

Results flagged for a closer look

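In 27 groups of 4 to 7 mice (9 genes in 3 groups), 2 single mice stood apart from the rest of their group by the gap test on the normalized counts, where chance gives about 1 in 20. *Spp1* was highest in WT mouse 59, at 2565 normalized counts against 1681 to 1852 in the other WT mice, a gap of 0.771 of the group's range. *Muc1* was lowest in CCKRi-treated mouse 69, at 613 normalized counts against 896 to 930 in the other treated mice, a gap of 0.911 of the range.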

How the results depend on the processing

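No paired analysis was possible because the groups have no mouse number in common. For *Lep*(ob/ob) against WT, 1 of the 9 genes was called in the main fit, 2 in batch A alone, 0 in batch B alone (where none of the 9 passed and 2 WT mice remain), 2 without mice 417, 461, 463 and 69, and 2 (*Sox9* and *Spp1*) with the islet score as a covariate, and 1 with each mouse left out. *Krt7* was called in 23 of 25 alternatives, lost in batch B alone and with the islet score. For treated against untreated mice the count was 0. It was 1 with no batch term, 1 with DESeq2 with batch and 4 with DESeq2 without batch. In no comparison is the share of all genes called without batch given here, so counts from those fits cannot be set against it. All treated mice were in batch B, so fits without batch do not keep treatment apart from batch. For treated mice against WT the count was 2, and it was 4 with no batch term and with DESeq2 without batch. It was 0 with only the 2 groups compared, in batch B alone, with the proglumide mice alone and with the islet score, and 1 to 2 with each mouse left out. The cause of these changes was not tested.

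No log2 fold change passed in a fit where its sign was turned, although *Sox9* and *Spp1* (untreated against WT, islet score) and *Krt8* (treated against untreated, DESeq2 without batch, -0.89) passed with the original sign in another. Against WT, untreated mice had *Sox9* at 0.038 and *Spp1* at 0.13 in batch A alone, and *Spp1* at 0.16 and *Krt18* at 0.00029 without the 4 mice. Treated against untreated, *Krt7* was -0.042 (no batch term), -0.057 (DESeq2 without batch) and -0.29 (proglumide), *Sox9* was -0.28, -0.29 and -0.021 in the same settings and -0.24 without the 4 mice, and *Krt8* and *Krt18* were 0.14 and 0.21 with the acinar enzyme score. Treated against WT, *Cftr* was -0.16 with only the 2 groups, -0.16 in batch B, -0.11 without the 4 mice and -0.11 with the acinar score. There *Krt18* was 0.14 with the acinar score, *Spp1* was -0.47 with the islet score, and *Onecut1* was 0.078, 0.070, 0.0086, 0.0040 and 0.13 with no batch term, DESeq2 without batch, at least 10 counts in every mouse, the proglumide mice and the acinar score.

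With each mouse left out in turn, signs turned for *Spp1* between untreated mice and WT (-0.18 to 0.035, without WT mouse 59 or *Lep*(ob/ob) mouse 463), for *Krt7* (-0.025 to 0.40), *Krt18* (-0.27 to 0.038) and *Sox9* (-0.17 to 0.22) between treated and untreated mice, and for *Onecut1* between treated mice and WT (-0.14 to 0.30). *Cftr* (19 to 88 reads) and *Onecut1* rested on the fewest raw counts, and how far low counts limit each gene was not tested.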
